A study of Mus musculus with 6 samples.

Results

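The genes described here are Igf1, which encodes insulin-like growth factor I (IGF-I), and 4 genes whose products hold IGF-I in the circulation: Igfals, Igfbp1, Igfbp2 and Igfbp4. They are 5 of the 40824 genes in the count table and were taken by name. The list was drawn up with earlier results of these data known. All 5 passed the filter on low counts and were among the 15015 genes tested. The nuclei came from livers of female wild-type C57BL/6J mice, mated at about 8 weeks of age, and were labelled as hepatocyte nuclei. They were profiled by Smart-seq3xpress, a plate-based full-length single-cell method, at 3 stages: P7L, lactating on day 7 after birth; G14.5, in gestation with the number giving the day; and G0, gestation day 0. Each stage had 1 library from perfusion and 1 from liver tissue, which makes 6 libraries and 1567 nuclei. No animal is named in the labels, so the p-values measure only the spread between these libraries, and nuclei of 1 library are not replicates.

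Hepatocytes are the main source of circulating IGF-I, and growth hormone drives Igf1 and Igfals there through the receptor Ghr and the transcription factor STAT5. The product of Igfals, the acid-labile subunit, joins IGF-I and IGFBP-3 or IGFBP-5 in a large complex that keeps the hormone in the blood. IGFBP-1, IGFBP-2 and IGFBP-4 form smaller complexes and can block the access of IGF-I to its receptor, Igfbp1 being repressed by insulin through FOXO factors and IGFBP-4 being cleaved by the protease PAPP-A.

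The libraries held 184 (G0 perfusion), 252 (G0 liver tissue), 301 (G14.5 perfusion), 224 (G14.5 liver tissue), 298 (P7L perfusion) and 308 (P7L liver tissue) nuclei. Their totals ran from 226030591 to 379767336 reads, and the median per nucleus from 731494 to 1191580 reads. At most 1.81% of the reads of a library fell on the 10 hepatocyte markers. Markers of sinusoidal endothelial, Kupffer, stellate, cholangiocyte and lymphoid cells summed to at most 34.2 CPM (read counts scaled to a common library size after TMM) per list and library. That highest sum was the endothelial list in G0 perfusion, where Kdr alone gave 17.4 CPM. Of the stellate markers, Lrat was at 0 in all 6 libraries, while Reln had 5.50 to 16.7 CPM. Of the lymphoid markers, the B-cell marker Ms4a1 was at 0 in all 6 libraries, while Ptprc had 0.74 to 2.46 CPM. The part of these other cells in the results below was not tested.

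On GRCm38, the authors' build, all 5 genes lie on the plus strand. Igf1 spans chr10:87858265-87937042, Igfals chr17:24865997-24882010, Igfbp1 chr11:7197782-7202546, Igfbp2 chr1:72824503-72852474 and Igfbp4 chr11:99041244-99054392. An antisense gene, Igf1os, overlaps the 5′ part of Igf1 on the other strand, but their annotated exons do not overlap. Whether the authors counted by strand is not given in the sources used here, so reads inside the overlap cannot be assigned with certainty. Igf1os itself had 13.4 to 35.6 CPM, with its highest values at G14.5, where Igf1 was below its G0 level.

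The upstream sequences of Igfbp1, which changed most between stages, and of Igfals, the partner of Igf1 in the growth hormone response, are shown with the motif matches in capitals. Both are RefSeq sequences on GRCm38.p6, plus strand, written 5′ to 3′, and run from 130 to 31 bases before the annotated start. The Igfbp1 window is chr11:7197657-7197756, and the Igfals window, before the second of its 3 annotated starts, is chr17:24878101-24878200.
Igfbp1: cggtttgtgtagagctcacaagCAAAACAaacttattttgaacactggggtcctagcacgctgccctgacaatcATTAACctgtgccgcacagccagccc
Igfals: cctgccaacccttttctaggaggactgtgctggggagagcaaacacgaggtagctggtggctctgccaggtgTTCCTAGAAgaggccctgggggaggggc
In Igfbp1 the capitals mark CAAAACA, the core of the insulin response element bound by FOXO factors, at -108 to -102, and ATTAAC, which is GTTAAT of the HNF1 recognition sequence read on the other strand, at -56 to -51. In Igfals they mark TTCCTAGAA, a match to the STAT5-type motif TTCNNNGAA, at -58 to -50. Before the first annotated start of Igfals, TTCTCAGAA matched the same motif at -236 to -228, outside the window shown. On either strand of the 250 bases before the start, TTCNNNGAA occurred in 7.02% of 32851 promoters, CAAAACA in 5.56% and GTTAAT in 6.43%. The TATA box letters TATAAA, present in 12.4%, were found in Igfbp4 at -28 to -23. These shares are per promoter, while Igfals has 3 annotated starts. No match to these motifs was found for Igf1 or Igfbp2. These matches are letters in a window and were not read as binding sites.

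Over the 3 stages, Igf1 stepped down while the binding protein genes followed other courses. Igf1 had 1654 and 1952 CPM in G0 nuclei (perfusion and liver tissue, in this order here and below), 1098 and 808 CPM in G14.5 nuclei, and 397 and 421 CPM in P7L nuclei. The 3 stages did not overlap over all nuclei. How many of all tested genes separate by stage in such a way was not counted, for Igf1 or for the genes below. Igfals, the subunit of the large complex, had 9.79 and 11.6 CPM in G0, 10.2 and 10.4 CPM in G14.5, and 4.14 and 3.87 CPM in P7L nuclei. Its P7L libraries lay below the other 4, while G0 and G14.5 overlapped.

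Igfbp1, the insulin-repressed binding protein, had 91.7 and 35.8 CPM in G0, 334 and 231 CPM in G14.5, and 74.1 and 43.4 CPM in P7L nuclei. The G14.5 libraries stood above all others, and G0 and P7L overlapped. Igfbp2, a binding protein abundant in liver and blood, had 127 and 174 CPM in G0, 294 and 326 CPM in G14.5, and 276 and 232 CPM in P7L nuclei. Both later stages lay above G0, and their own ranges did not overlap. Igfbp4, an inhibitor of IGF action, had 373 and 439 CPM in G0, 576 and 527 CPM in G14.5, and 421 and 396 CPM in P7L nuclei. Its G14.5 values were the highest, and those of G0 and P7L overlapped.

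**Figure D1:**
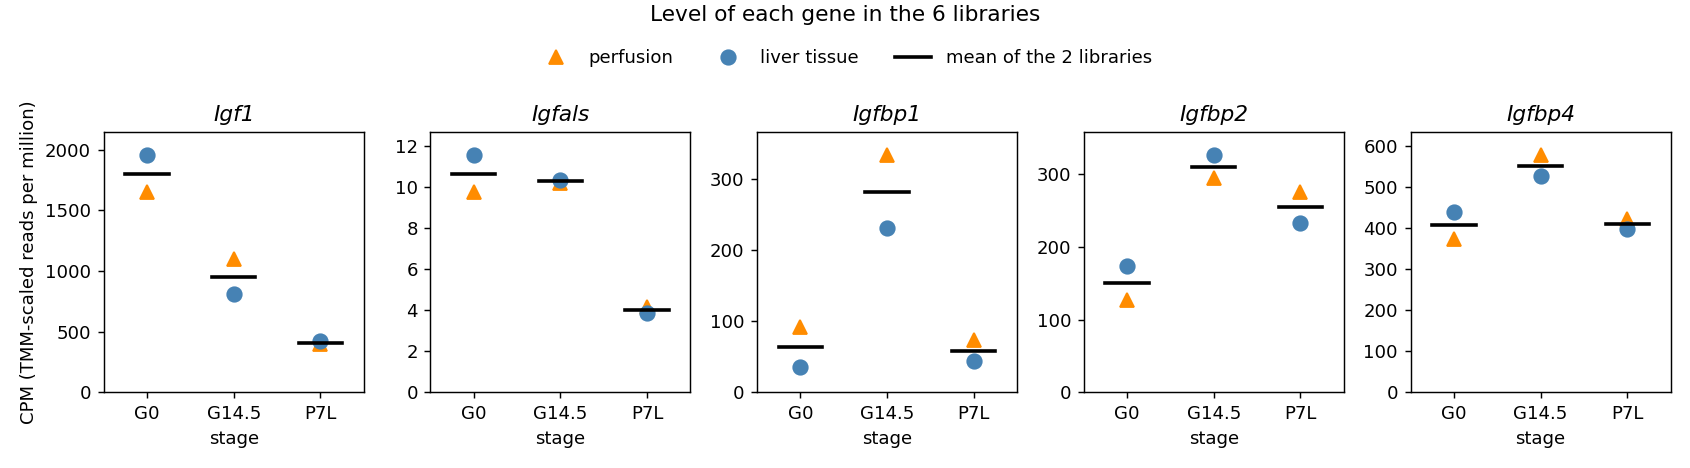
CPM of each gene by stage, with 1 point per library (triangles, perfusion; circles, liver tissue) and a bar at the mean of the 2 libraries of a stage; each panel has its own axis from 0. Igf1 was lowest at P7L (397 and 421 CPM), and Igfbp1 was highest at G14.5 (334 and 231 CPM).

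The first stage comparison, G14.5 against G0, addresses the state of the axis in mid to late gestation. Igfbp1 and Igfbp2 rose and Igf1 fell, while Igfbp4 and Igfals did not pass the test. Thus 3 of the 5 genes were called by edgeR's quasi-likelihood test at a Benjamini-Hochberg adjusted p under 0.05, where 11.9% of all tested genes were (6.93% higher and 5.01% lower). Igfbp1 averaged 283 ± 72.5 CPM at G14.5 and 63.8 ± 39.5 CPM at G0 (SD, n = 2 libraries each), a log2 fold change of 2.27 ± 0.22 (SE; edgeR adjusted p = 0.00172). Igfbp2 averaged 310 ± 22.4 CPM at G14.5 and 150 ± 33.0 CPM at G0, a log2 fold change of 1.05 ± 0.18 (edgeR adjusted p = 0.0134). For Igf1 the mean was 953 ± 205 CPM at G14.5 and 1803 ± 211 CPM at G0, a log2 fold change of -0.92 ± 0.17 (edgeR adjusted p = 0.0165). The Igf1 difference was -0.59 between the perfusion libraries and -1.27 between the liver tissue libraries on the log2 scale.

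Igfbp4, at 551 ± 34.9 CPM in G14.5 and 406 ± 46.1 CPM in G0 nuclei, had a log2 fold change of 0.44 ± 0.13 (edgeR adjusted p = 0.0739). It was higher at G14.5 in both preparations, by 0.63 in perfusion and 0.26 in liver tissue. Igfals changed by -0.05 ± 0.34 on the log2 scale (edgeR adjusted p = 0.942). Igfbp1 kept its call whichever of the 6 libraries was left out, and the calls of Igf1 and Igfbp2 did not. Without the G14.5 liver tissue library, Igf1 (-0.62, edgeR adjusted p = 0.0821) and Igfbp2 (1.03, edgeR adjusted p = 0.0786) no longer passed, and without the G0 liver tissue library Igfbp4 did (0.62, edgeR adjusted p = 0.0248).

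For P7L against G0, which asks how far the axis differs from its starting level in lactation, Igf1 was the 1 gene of 5 called, where 2.92% of all tested genes were (1.56% higher and 1.36% lower). It averaged 409 ± 17.0 CPM at P7L and 1803 ± 211 CPM at G0 (SD, n = 2 libraries each), a log2 fold change of -2.14 ± 0.17 (edgeR adjusted p = 0.00373). The difference was -2.06 in perfusion and -2.21 in liver tissue. Igfals, at 4.00 ± 0.19 CPM in P7L and 10.7 ± 1.25 CPM in G0 nuclei, had a log2 fold change of -1.41 ± 0.35 and did not pass (edgeR adjusted p = 0.0818). Igfbp2 averaged 254 ± 30.7 CPM at P7L and 150 ± 33.0 CPM at G0, with a log2 fold change of 0.77 ± 0.18 (edgeR adjusted p = 0.0734). It passed when the G0 liver tissue library was left out (1.02, edgeR adjusted p = 0.0325). Igfbp1 (-0.03 ± 0.21) and Igfbp4 (0.01 ± 0.13) had log2 fold changes near 0 (edgeR adjusted p = 0.945 and 0.976), and both went opposite ways in the 2 preparations.

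Between P7L and G14.5, Igf1 and Igfbp1 both fell, so that 2 of the 5 genes were called, where 9.26% of all tested genes were (4.2% higher and 5.06% lower). Igfbp1 averaged 58.8 ± 21.7 CPM at P7L and 283 ± 72.5 CPM at G14.5, a log2 fold change of -2.30 ± 0.22 (edgeR adjusted p = 0.00151). Igf1 changed by -1.22 ± 0.17 on the log2 scale (edgeR adjusted p = 0.00625), with 409 ± 17.0 CPM at P7L and 953 ± 205 CPM at G14.5. Without the P7L perfusion library the Igf1 change was -1.11 and did not pass (edgeR adjusted p = 0.0627). Igfals had 4.00 ± 0.19 CPM at P7L and 10.3 ± 0.11 CPM at G14.5, a log2 fold change of -1.36 ± 0.35 just short of the threshold (edgeR adjusted p = 0.0565). Igfbp4 changed by -0.43 ± 0.13 (edgeR adjusted p = 0.0967) and Igfbp2 by -0.28 ± 0.18 (edgeR adjusted p = 0.412). Leaving out a G0 library enters this comparison through the shared spread, the filter, the scaling and the adjustment. Without the perfusion and the liver tissue library of G0, Igfals was at -1.36 and -1.37 and Igfbp4 at -0.43 and -0.44. These sizes hardly differed from those over all 6 libraries. Whether Igfals and Igfbp4 passed nevertheless depended on the G0 libraries included, so their status in this comparison is not settled.

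The comparison of perfusion with liver tissue asks whether the preparation bears on these genes. No gene of the 5 was called by edgeR, and 0% of the tested genes were, with 707 at an unadjusted p under 0.05. Igfbp1 had the largest difference of the 5, with 91.7, 334 and 74.1 CPM in the perfusion libraries of G0, G14.5 and P7L, against 35.8, 231 and 43.4 CPM in the liver tissue libraries. It was higher in perfusion at each of the 3 stages, by 0.53 to 1.36 on the log2 scale. The fitted log2 difference was 0.88 ± 0.17 (unadjusted p = 0.00137, edgeR adjusted p = 0.971). The other 4 genes had log2 differences from -0.12 to 0.04. At an unadjusted p under 0.05, Igfbp1 was the 1 gene of the 5, and DESeq2 called it (adjusted p = 0.00904) among 85 genes in all.

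Levels can be set beside each other between genes only per transcript length, for which the authors' length-scaled values were used (each count divided by a gene length, each nucleus scaled to 100000, mean over nuclei). At G0, Igf1 had the highest level of the 5, with 71.3 and 71.2. Igfbp2 (29.6 and 37.9) and Igfbp4 (28.3 and 35.5) followed and overlapped, Igfbp1 had 17.8 and 9.72, and Igfals 1.51 and 1.63. At G14.5, Igfbp2 had 65.8 and 71.4 and Igfbp1 64.5 and 47.5, above Igf1 with 42.8 and 33.8, which overlapped Igfbp4 with 41.6 and 39.8. At P7L the order was Igfbp2 (63.9 and 55.0), Igfbp4 (33.4 and 31.3), Igf1 (17.8 and 17.1), Igfbp1 (15.5 and 9.42) and Igfals (0.64 and 0.66). The length behind the values was that of the longest annotated transcript for the genes other than Igfals, for which it was 2111 against 2625 bases.

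The summed level of Igfbp1, Igfbp2 and Igfbp4 was 75.7 and 83.1 in G0, 172 and 159 in G14.5, and 113 and 95.7 in P7L nuclei. It was thus above its G0 level at G14.5, where Igf1 was below its own, and both were lower at P7L than at G14.5. The sum divided by Igf1 gave 1.06 and 1.17 in G0 nuclei, 4.02 and 4.70 in G14.5 nuclei, and 6.33 and 5.58 in P7L nuclei. The 3 stages did not overlap in this ratio, which was not tested. Igfbp1 supplied 37.5% and 29.9% of the sum at G14.5, against 23.5% and 11.7% at G0, whereas at P7L, with 13.7% and 9.85%, Igfbp2 made up most of it (56.7% and 57.4%). These are RNA levels in nuclei, and no protein was measured.

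**Figure D2:**
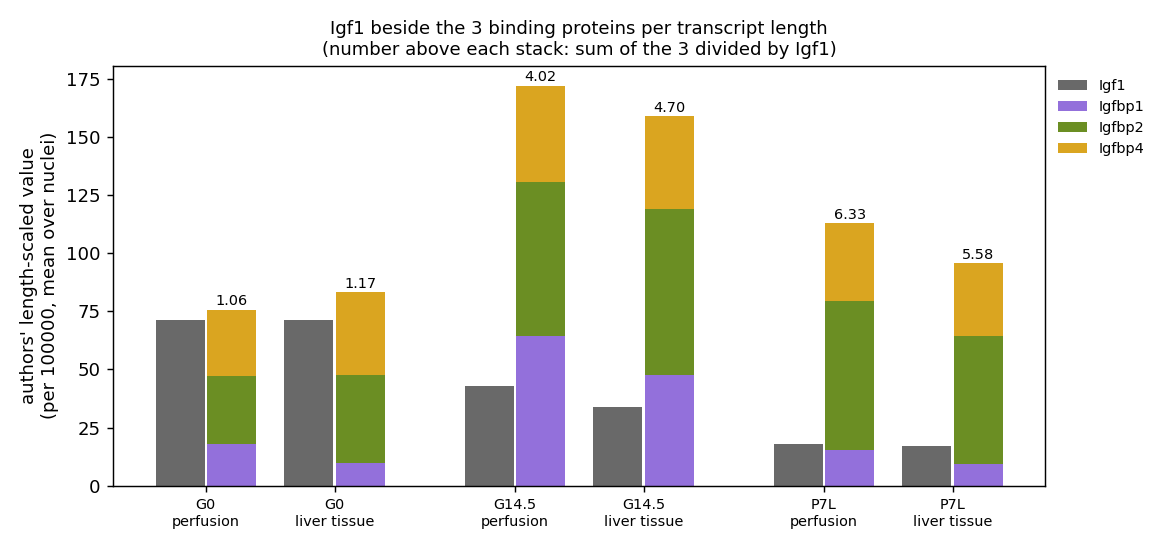
Authors' length-scaled values per library, with Igf1 in grey beside a stack of Igfbp1, Igfbp2 and Igfbp4; the number above each stack is its height divided by the Igf1 bar. The number is 1.06 and 1.17 in G0, 4.02 and 4.70 in G14.5, and 6.33 and 5.58 in P7L libraries.

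Reads of these genes were spread over the nuclei to different degrees. To compare nuclei at 1 depth, 250000 reads were drawn from each nucleus, and the 35 nuclei with fewer (3 and 15 in G0, 1 and 0 in G14.5, 2 and 14 in P7L) were left out. At that depth Igf1 and Igfbp4 had reads in 99.0% to 100% of the nuclei of every library. Igfbp2 was found in 90.1% to 97.6%. Igfbp1 was found in 53.6% of G0 perfusion nuclei (95% Clopper-Pearson interval 46.0% to 61.0%) and 63.3% of G0 liver tissue nuclei (56.8% to 69.4%). It reached 98.7% (96.6% to 99.6%) and 97.3% (94.3% to 99.0%) at G14.5, and stood at 79.4% (74.3% to 83.9%) and 70.4% (64.8% to 75.6%) at P7L. The G14.5 intervals thus lay above those of the other stages.

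Unthinned, these Igfbp1 shares were 58.2% and 72.6% in G0, 99.7% and 99.6% in G14.5, and 87.9% and 82.5% in P7L nuclei. The intervals cover counting error within 1 library only. The counts used are of reads and not of molecules, so several reads can stem from 1 molecule. Igfals was found in 29.3% and 27.4% of G0 nuclei, 28.3% and 34.4% of G14.5 nuclei, and 15.5% and 22.1% of P7L nuclei. Unthinned, its shares were 41.3% and 35.7% in G0, 40.2% and 45.1% in G14.5, and 25.2% and 26.9% in P7L nuclei. With 5 or more reads required of a thinned nucleus, they were 11.6% and 13.9%, 11.7% and 15.6%, and 7.09% and 8.50% at these stages. Free RNA could add to these shares, and its level was not measured here.

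The 5% of nuclei with the most Igfbp1 held 49.0% and 49.3% of all its reads in G0 nuclei, 19.2% in either G14.5 library, and 28.8% and 37.8% in P7L nuclei. Its reads were therefore most evenly spread at G14.5, the stage of its highest level. At G0 the median nucleus had 5.54 and 8.20 CPM of Igfbp1, against a 90th percentile of 295 and 130 CPM. For Igf1, the 10th and 90th percentiles of nuclei at P7L were 52.3 and 1092 CPM in perfusion and 23.8 and 1004 CPM in liver tissue. Between the members, the Spearman correlation over the thinned nuclei of a library ran from -0.58 to -0.09 for Igf1 with Igfbp1. It lay between -0.23 and 0.29 for all other pairs. In G14.5 liver tissue, Igfbp1 with Igfbp2 (-0.11) was below Igf1 with Igfbp1 (-0.09). These correlations are descriptions over nuclei that share a library.

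Levels of Igf1 and Igfbp1 also differed with the number of the nucleus. The labels number the nuclei of each library from 1 upwards and do not say what the numbers stand for, such as animals, plates or days. When each library was split at the middle of its numbering, a split chosen after seeing the data, Igf1 was higher in the high-numbered nuclei in 6 of 6 libraries. Igf1 in the high-numbered nuclei, against the low-numbered ones of the same library, was at 2469 against 910 CPM in G0 perfusion and 2546 against 756 CPM in G0 liver tissue, here without TMM scaling. At G14.5 the values were 1094 against 861 CPM and 873 against 660 CPM, and at P7L 560 against 269 CPM and 664 against 195 CPM.

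Igfbp1 went the other way, being lower in the high-numbered nuclei in 6 of 6 libraries. It was at 8.60 against 174 CPM in G0 perfusion and 16.3 against 76.1 CPM in G0 liver tissue. At G14.5 it was at 219 against 423 CPM and 201 against 237 CPM, and at P7L at 44.1 against 113 CPM and 32.1 against 65.7 CPM. Of the 15015 tested genes, 4.00% were higher and 3.08% lower in the high-numbered nuclei of all 6 libraries, and 0.42% kept 1 direction with a median change over 1 on the log2 scale. Igf1 (median 1.25) and Igfbp1 (median -1.17) are among that last group.

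Igfbp2 was lower in the high-numbered nuclei in 5 of 6 libraries, all but G14.5 liver tissue, and most clearly at P7L, with 182 against 402 CPM and 173 against 350 CPM. Igfbp4 moved by -0.12 to 0.34 on the log2 scale, and Igfals was higher in 5 of 6 libraries. In 3693 other genes the place where levels changed most along the numbering fell after nucleus 85 of 184, 136 of 252, 149 of 301, 98 of 224, 164 of 298 and 152 of 308, in the order of libraries given above, so near the middle of each. The median depth also differed at some of these splits, most in G0 liver tissue with 1162390 reads in high-numbered and 488596 reads in low-numbered nuclei. The hepatocyte markers took a smaller share of reads in the high-numbered nuclei of 5 libraries, for example 1.15% against 1.84% in G0 perfusion. In P7L liver tissue they took 1.78% against 1.63%. The part of depth and marker share in the Igf1 and Igfbp1 differences was not tested. Within the low-numbered or the high-numbered nuclei of a library, the Spearman correlation of Igf1 with Igfbp1 lay between -0.21 and 0.20.

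**Figure D3:**
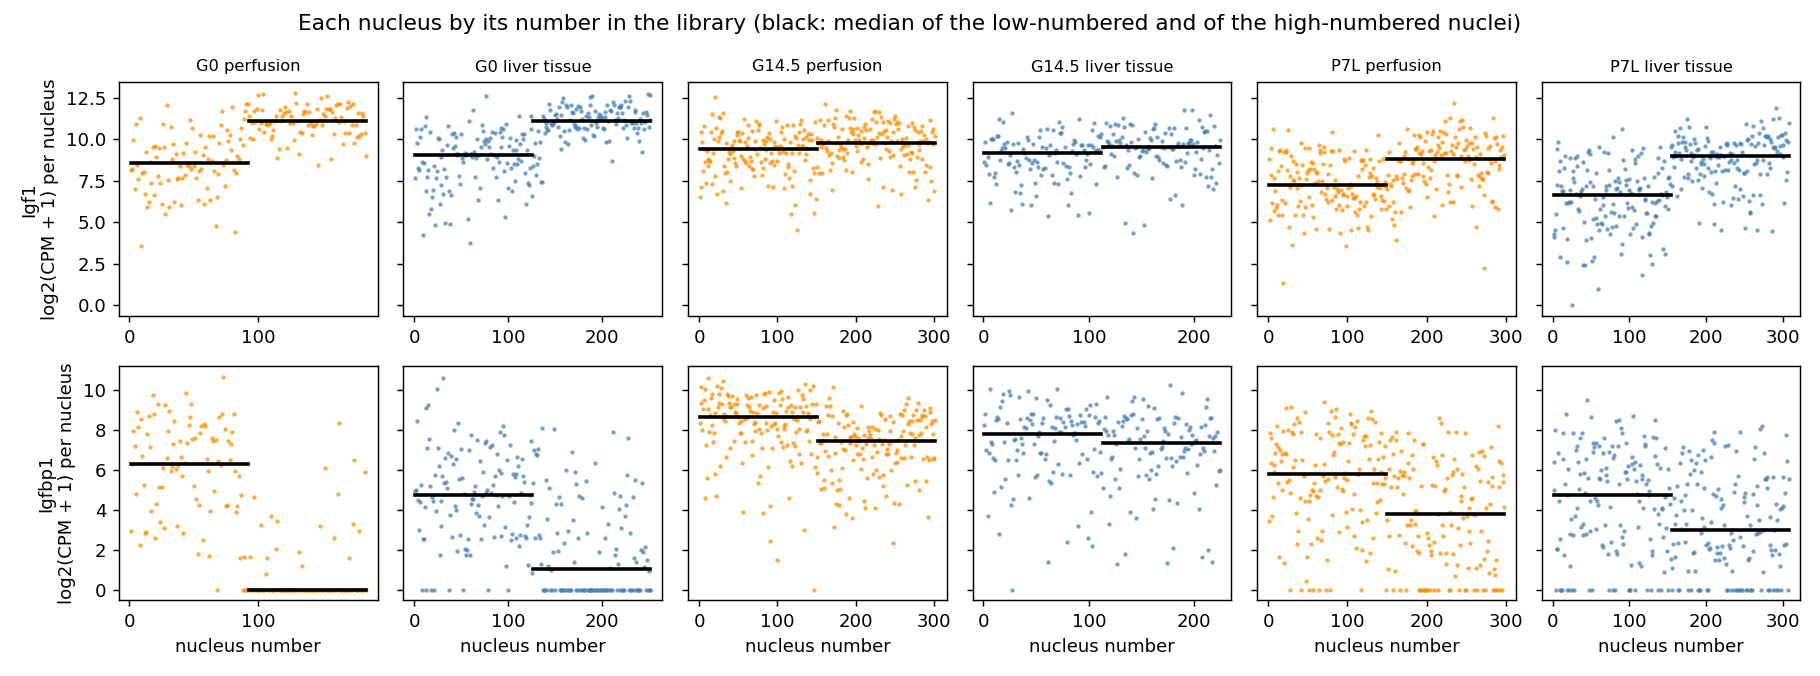
Each point is 1 nucleus, placed by its number in the library, with log2(CPM + 1) of Igf1 (upper row) or Igfbp1 (lower row); black lines are the medians of the low-numbered and the high-numbered nuclei, and the libraries are coloured by preparation (orange, perfusion; blue, liver tissue). Igf1 medians step up and Igfbp1 medians step down in all 6 libraries.

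The stage comparisons were therefore repeated within each range of numbers, again as a choice made after seeing the data. Among low-numbered nuclei, Igfbp1 was the 1 gene of 5 called for G14.5 against G0 (log2 fold change 1.53 ± 0.21, edgeR adjusted p = 0.0106), where 5.38% of the tested genes were. Igf1 changed there by -0.07 ± 0.15 (edgeR adjusted p = 0.838), and Igfbp2 by 0.82 ± 0.26 (edgeR adjusted p = 0.128). Among high-numbered nuclei 3 of 5 were called, where 4.73% of the tested genes were: Igf1 (-1.25 ± 0.20, edgeR adjusted p = 0.0236), Igfbp1 (4.19 ± 0.42, edgeR adjusted p = 0.00485) and Igfbp2 (1.16 ± 0.21, edgeR adjusted p = 0.0321). The rise of Igfbp1 at G14.5 was thus called in both ranges, and the fall of Igf1 in the high-numbered range alone, while the difference between the ranges was not tested. Both ranges come from the same 6 libraries, so a call in each is not separate support. The labels do not say whether a range stands for the same thing in every library.

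For P7L against G0, Igf1 was the 1 gene called in each range, where 0.497% of the tested genes were called among low-numbered and 0.66% among high-numbered nuclei. Its log2 fold change was -2.01 ± 0.15 in low-numbered (edgeR adjusted p = 0.0089) and -2.12 ± 0.21 in high-numbered nuclei (edgeR adjusted p = 0.0139). The Igf1 difference between lactation and G0 was thus about as large in each range as over all nuclei. Igfbp1 had log2 fold changes of -0.58 ± 0.20 in low-numbered (edgeR adjusted p = 0.222) and 1.54 ± 0.38 in high-numbered nuclei (edgeR adjusted p = 0.132), which go opposite ways.

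For P7L against G14.5, Igf1 and Igfbp1 were the 2 of 5 called among low-numbered nuclei, where 3.91% of the tested genes were, and Igfbp1 was the 1 of 5 called among high-numbered nuclei, where 3.29% were. Igfbp1 changed by -2.11 ± 0.21 in low-numbered (edgeR adjusted p = 0.00366) and -2.65 ± 0.39 in high-numbered nuclei (edgeR adjusted p = 0.0193). The Igf1 change was -1.95 ± 0.15 in low-numbered (edgeR adjusted p = 0.00159) and -0.88 ± 0.20 in high-numbered nuclei (edgeR adjusted p = 0.0728). The higher Igfbp1 level in perfusion was 0.99 ± 0.17 on the log2 scale among low-numbered nuclei and -0.09 ± 0.30 among high-numbered ones (edgeR adjusted p = 0.554 and 0.993).

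**Figure D4:**
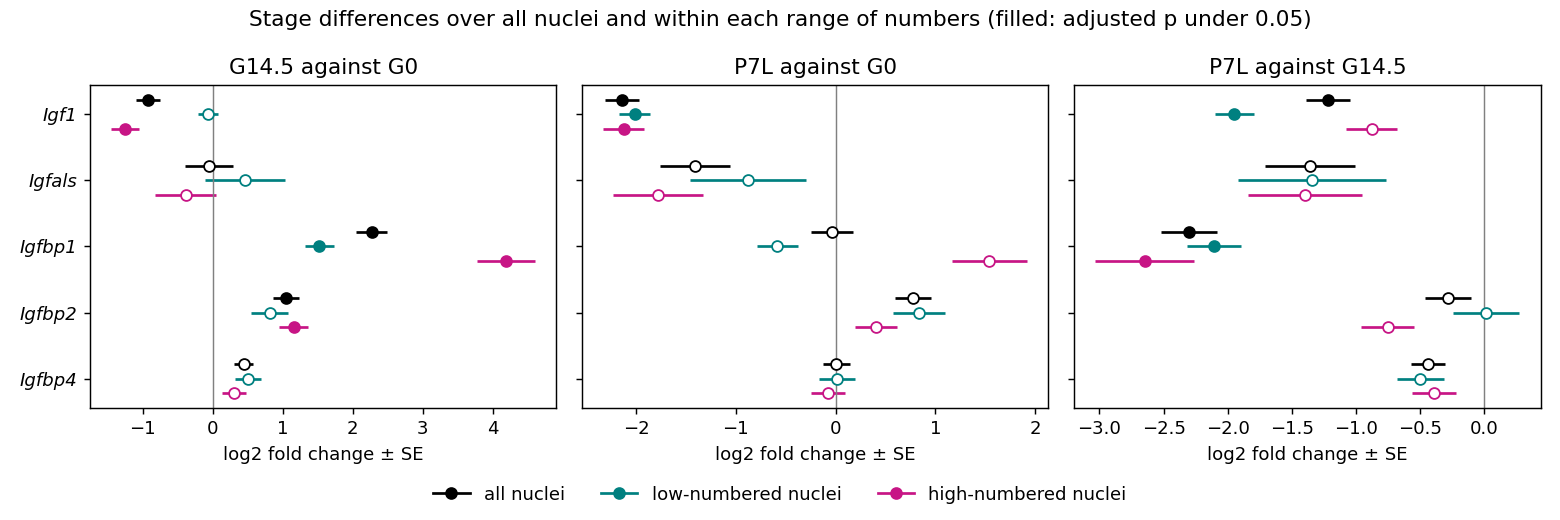
Log2 fold change of each gene with its SE for the 3 stage comparisons, over all nuclei (black), the low-numbered (teal) and the high-numbered nuclei (magenta); filled symbols passed an edgeR adjusted p under 0.05. Igf1 at G14.5 against G0 sits at -0.07 in low-numbered and -1.25 in high-numbered nuclei, whereas at P7L against G0 it sits at -2.01 and -2.12.

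Hepatocytes differ along the liver lobule between the portal vein and the central vein. Nuclei were ranked within each library by a zonation index, the share of pericentral reads among the reads of 10 pericentral genes (such as Cyp2e1) and 10 periportal genes (such as Cyp2f2), and cut into 3 groups of near-equal size. Igf1 was higher in the periportal than in the pericentral group in 5 of 6 libraries, with a mean log2 difference of 0.80 ± 0.77 (SD, n = 6 libraries; exact two-sided sign-flip permutation test, p = 0.09375, adjusted p = 0.313 over the 5 genes). It had 642 and 667 CPM in the periportal group at P7L, against 252 and 196 CPM in the pericentral group. G0 perfusion went the other way, with 1485 CPM periportal against 2092 CPM pericentral.

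Igfbp1 was lower in the periportal group in 5 of 6 libraries, again all but G0 perfusion (mean -0.43 ± 1.31; exact permutation p = 0.46875, adjusted p = 0.469). Igfbp2 was higher in the periportal group in 4 of 6 libraries (mean 0.63 ± 0.97; exact permutation p = 0.25, adjusted p = 0.313). At G14.5 its periportal nuclei had 400 and 418 CPM, against 121 and 112 CPM in the pericentral group, and at P7L 250 and 200 CPM, against 330 and 234 CPM. The stages thus lay on opposite sides of 0, a difference that was not tested. Igfals (-0.28 ± 0.55) and Igfbp4 (-0.12 ± 0.19) had small mean differences (adjusted p = 0.313 each by the same exact test), and none of the 5 genes passed. With 6 libraries the unadjusted p falls under 0.05 when all 6 go 1 way and not otherwise. After adjustment over the 5 genes, 1 such gene alone could not have passed. The lack of a call, here and in the ranking below, therefore does not show that a gene is without a zonal difference.

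Ranking within each range of numbers, which was added after seeing the data, left Igf1 at 0.72 ± 0.64 (4 of 6 libraries higher in the periportal group), Igfbp1 at -0.70 ± 0.54 (lower in 5 of 6, exact permutation p = 0.0625) and Igfbp2 at 0.82 ± 0.92 (higher in 5 of 6). Igfbp2 at P7L was then at -0.57 in perfusion and 0.16 in liver tissue, so that this stage no longer lay on 1 side of 0. The adjusted p was 0.208 for Igf1, Igfbp1 and Igfbp2 alike. Both G0 libraries were then at 0.00 and -0.09 for Igf1, while the G14.5 libraries were at 0.86 and 0.89 and the P7L libraries at 1.20 and 1.48.

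**Figure D5:**
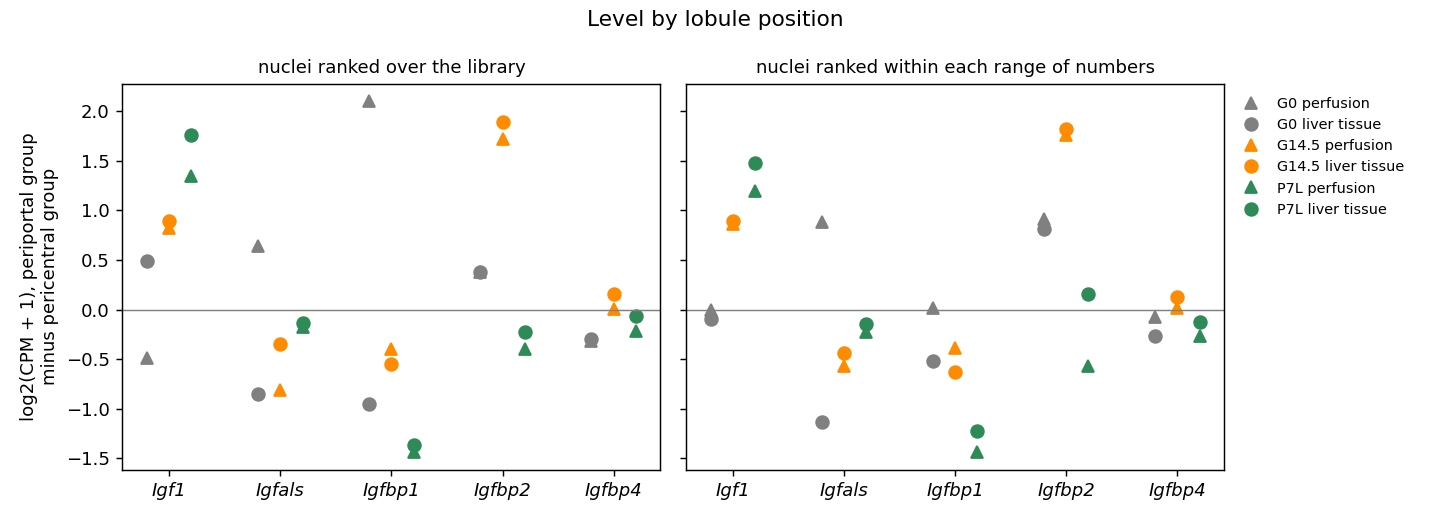
Log2(CPM + 1) in the periportal group minus that in the pericentral group, 1 point per library (triangles, perfusion; circles, liver tissue; grey G0, orange G14.5, green P7L), with nuclei ranked over the whole library (left) or within each range of numbers (right). Igfbp2 stands at 1.72 and 1.90 at G14.5 in the left panel, and Igf1 of the G0 libraries moves to 0.00 and -0.09 in the right panel.

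Of 16 other listed genes of the IGF system, 10 passed the filter on low counts, and edgeR called 0 of them in each of the 3 stage comparisons. At an unadjusted p under 0.05 there were 0 at G14.5 against G0, 4 at P7L against G0 and 3 at P7L against G14.5. In the same order, DESeq2 called 0, 2 and 1 of the 10. Of all 15015 tested genes, 4398, 3183 and 3549 had an unadjusted p under 0.05 in this order. DESeq2 called 3410, 1901 and 2631 genes in all. At G14.5 against G0 the median log2 fold change of the 10 was 0.23 and that of all tested genes -0.01. It was -0.28 at P7L against G0 and -0.38 at P7L against G14.5, where all tested genes had 0.01 and -0.00237. The receptor gene Igf1r had 0.92 to 3.81 CPM and the insulin receptor gene Insr 419 to 620 CPM. Igfbp3, which binds most IGF-I in blood, stayed under 1 CPM, at 0.14 to 0.58 CPM, and Igf2 was at 0 to 0.01 CPM.

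Among 13 tested genes of growth hormone signalling, the upstream input of Igf1, 2 rose and 0 fell at G14.5 against G0, beside 11.9% called among all tested genes, so the count is near the background. They were Ghr, the growth hormone receptor (2.12 ± 0.10), and Socs2, a feedback inhibitor induced through STAT5 (1.34 ± 0.26, edgeR adjusted p = 0.0204). Ghr had 29177 and 27766 CPM at G14.5, against 6470 and 6636 CPM at G0, so that in this comparison it was higher and Igf1 lower. At P7L, where Igf1 was lowest, Ghr had 4621 and 5268 CPM, below its G0 values. That difference from G0 did not pass (-0.41 ± 0.10, edgeR adjusted p = 0.0735). At P7L against G0, with a background of 2.92%, 0 rose and 2 fell, Socs2 (-3.29 ± 0.28) and Cish, another such inhibitor (-3.63 ± 0.48), and at P7L against G14.5, with a background of 9.26%, these 2 fell along with Ghr (-2.53 ± 0.10). Socs2 had 11.2 and 15.2 CPM at P7L, against 158 and 98.9 CPM at G0, so that it, Cish and Igf1 were all lower in lactation.

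Of 10 tested FOXO targets and factors, the insulin-repressed group to which Igfbp1 belongs, 1 rose and 2 fell at G14.5 against G0. In that comparison 11.9% of all tested genes were called. At P7L against G0, where the background was 2.92%, edgeR called 0 of the 10. There 4 of the 10 were at an unadjusted p under 0.05, and DESeq2 called 2. Of all 15015 tested genes, 3183 had an unadjusted p under 0.05 at P7L against G0, and DESeq2 called 1901. At G14.5 against G0, Sesn3, an inhibitor of mTORC1 signalling, rose (1.04 ± 0.21). In the same comparison, Foxo4 (-1.92 ± 0.42) and the coactivator gene Ppargc1a (-0.69 ± 0.15) fell. The gluconeogenic gene G6pc had 617 and 265 CPM at G14.5, against 278 and 210 CPM at G0 (0.73 ± 0.20, edgeR adjusted p = 0.0605). At P7L against G14.5, where 9.26% of all tested genes were called, Ppargc1a (0.96 ± 0.15) and Klf15 (0.62 ± 0.15) rose and G6pc (-1.21 ± 0.20) and Pdk4 (-2.47 ± 0.55) fell. The named genes thus went both ways. G6pc, Pdk4 (1.01 at G14.5 against G0) and Sesn3 (-0.76 at P7L against G14.5) had the signs of Igfbp1 in both comparisons. Foxo4, Ppargc1a and Klf15 (-0.05 at G14.5 against G0) had the opposite signs.

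The amino acid response driven by ATF4, another input of Igfbp1, had 1 gene up and 1 down of 12 tested at G14.5 against G0: the stress gene Nupr1 (3.32 ± 0.57) and the lipoprotein receptor gene Vldlr (-4.06 ± 0.47). That edgeR count is close to the 11.9% called among all tested genes. At an unadjusted p under 0.05 there were 5 of the 12 at G14.5 against G0, 4 at P7L against G0 and 6 at P7L against G14.5. In the same order, DESeq2 called 4, 2 and 6 of the 12. Of all 15015 tested genes, 4398, 3183 and 3549 had such an unadjusted p, and DESeq2 called 3410, 1901 and 2631. At P7L against G0 (background 2.92%), 0 rose and 2 fell, Atf5 (-1.45 ± 0.25) and Vldlr (-2.54 ± 0.44), and at P7L against G14.5 (background 9.26%), 0 rose and 2 fell, Atf5 (-1.76 ± 0.25) and Nupr1 (-4.02 ± 0.59). Nupr1 had 11.4 and 7.49 CPM at G14.5, against 0.72 and 1.19 CPM at G0 and 0.59 and 0.58 CPM at P7L, with its highest values at the same stage as Igfbp1.

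Across the 6 libraries, the genes whose log2 CPM was most like that of a member, out of 5744 with a mean of at least 20 CPM, are given as a description without a test. For Igf1 they were Ugcg (Pearson r = 1.00), Slc30a10 (0.99) and Rabep1 (0.99). For Igfals they were Hipk2, Gnl3l and Fndc3a, and for Igfbp1 Mprip, Gsk3b and Ttc39b. Igfbp2 had Med21, Fabp5 and Parn, and Igfbp4 had Stat3, Xrcc4 and Mpp1. Ugcg, which makes glucosylceramide, had 170 and 200 CPM in G0, 130 and 111 CPM in G14.5, and 71.0 and 68.3 CPM in P7L nuclei. With 6 libraries and 3 stages, many genes reach such values of r.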

How the data were processed

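Raw counts of reads per gene and nucleus were deposited by the authors. Per the submitters' processing notes, Trimmomatic 0.39, HISAT2 2.1.0 and featureCounts 1.5.3 were used with GRCm38 (mm10). The strand setting, the annotation and any filter on nuclei are not given in the sources used here. The authors' second table holds TPM-like values, in which each count was divided by a gene length and each nucleus scaled to 100000, leaving some abundant genes out of the scaling total, as inferred from the numbers. No nucleus was removed (1567 in all), and doublets were not called. Reads were summed per library. The filter was filterByExpr plus reads in 5% or more of the nuclei in 2 or more libraries. The edgeR 4.0.16 quasi-likelihood F test (R 4.3.3; terms for stage and preparation, TMM scaling, robust) was adjusted over all 15015 tested genes, with 2 residual degrees of freedom; it was tested on simulated data. The 2 preparations of a stage share no label that pairs them across stages, so preparation is a term and not a pairing.

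The members and gene lists were chosen with earlier results of these data known. Named genes are the 5 members and, from each list, at most 6 tested genes called in at least 1 stage comparison, by smallest p; Igf1os, Insr, Igf1r, Igfbp3 and Igf2 were named after their values were seen. Zonation used an exact sign-flip permutation test over 6 libraries. Alternatives were RLE factors, library size alone, other filters, no term for preparation, thinned nuclei, DESeq2 1.42.0, limma 3.58.1 on log2 of the authors' TPM-like values with pseudocounts of 1 and 0.1, and leaving out each library. The split by nucleus number was added after seeing the data. Ensembl and RefSeq annotation were matched by symbol, for 5 of 5 genes. Python 3.11.15 and scipy 1.17.1 were used.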

Additional observations from a re-analysis of the deposited data

Results flagged for a closer look

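Stage effects that went opposite ways in the 2 preparations, with 1 library on each side and no test of the difference, were found for 3 genes. Igfals at G14.5 against G0 had a log2 difference of 0.0605 in perfusion and -0.16 in liver tissue. Igfbp1 at P7L against G0 had -0.31 in perfusion and 0.28 in liver tissue. Igfbp4 at P7L against G0 had 0.17 in perfusion and -0.15 in liver tissue. None of these 3 effects was called over all libraries.

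Effects that went opposite ways in the low-numbered and the high-numbered nuclei, in both preparations each time, were found for 2 genes, and these differences were not tested either. Igfals at G14.5 against G0 had a log2 fold change of 0.46 in low-numbered and -0.38 in high-numbered nuclei. Igfbp1 at P7L against G0 had -0.58 in low-numbered and 1.54 in high-numbered nuclei. The high-numbered G0 nuclei had 8.60 and 16.3 CPM of Igfbp1 in perfusion and liver tissue, the lowest values of the gene in any range and stage.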

How the results depend on the processing

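Igfbp1 at G14.5 against G0 (log2 1.93 to 2.62) and at P7L against G14.5 (-2.56 to -2.02) kept its direction and its call under 15 other settings (6 of them leaving out a library), and Igf1 kept its direction in the 3 stage comparisons under those 15 and its call under 14 in each. For Igf1 the exception at P7L against G0 was the authors' values with a pseudocount of 1 (-1.97, limma adjusted p = 0.0521). Members called at P7L against G0 numbered 2 with library size alone, 2 with nuclei thinned to 250000 reads, 3 with DESeq2 and 0 with the authors' values and a pseudocount of 1. With library size alone, which moved the median of all genes to -0.13 (G14.5 against G0), 0.09 (P7L against G0) and 0.20 (P7L against G14.5), Igfbp1 at P7L against G0 was at 0.0445. Igfbp4 there was at -0.00298 after thinning. Genes called at G14.5 against G0 numbered 3410 with DESeq2 and 1128 with the authors' values and a pseudocount of 1. At P7L against G0 they numbered 92 with filterByExpr alone, 227 with no filter, 1901 with DESeq2, and 4 and 205 with the authors' values and pseudocounts of 1 and 0.1. DESeq2 called 2631 at P7L against G14.5, and 85 genes and 1 member between preparations. The cause was not tested.

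No paired analysis was possible because the replicate numbers were given in accession order and pair no samples, so the preparation term stood in for a replicate block. Without the term for the other factor (no replicate block), members called stayed at 3, 1 and 0 for G14.5 against G0, P7L against G0 and the preparations, and were 3 at P7L against G14.5, Igfals being added (-1.36, edgeR adjusted p = 0.0338). Between preparations Igf1 was then at -0.0151 and Igfbp4 at 0.00965.

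Leaving out 1 library at a time, which leaves a stage with 1 sample assumed to vary like the others, gave 1 to 4 members and 651 to 1942 genes at G14.5 against G0, 1 to 2 members and 37 to 669 genes at P7L against G0, and 1 to 4 members and 421 to 2431 genes at P7L against G14.5. Uncalled effects that changed sign were Igfals at G14.5 against G0 (-0.19 to 0.0924) and, at P7L against G0, Igfbp1 (-0.37 to 0.33) and Igfbp4 (-0.16 to 0.18). Between preparations they were Igf1 (-0.17 to 0.18), Igfals (-0.13 to 0.039), Igfbp2 (-0.30 to 0.0508) and Igfbp4 (-0.0775 to 0.11).

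With low-numbered nuclei alone, about 1 nucleus in 2 and so fewer reads, the test called 801 genes and 1 member at G14.5 against G0, 74 genes at P7L against G0 and 583 at P7L against G14.5. Igfals at G14.5 against G0 was at 0.46 and Igfbp2 at P7L against G14.5 at 0.0187. With high-numbered nuclei alone it called 709, 99 and 493 genes, and 1 member at P7L against G14.5. Igfbp1 was at 1.54 and Igfbp4 at -0.0805 for P7L against G0, and between preparations Igfbp1 was at -0.0884 and Igfbp4 at 0.0346. The mean zonation differences kept their sign under the 10 alternatives tried, 6 of which left out a library and could not reach the threshold with 5. Depth limits mainly Igfals, with under 12 CPM in all libraries.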

Other observations

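Along the nucleus number, Igf1 and Igfbp1 stood beside a small set of other genes, given here as values chosen after they were seen. Of 5990 tested genes with a mean of at least 20 CPM, 310 were higher and 243 lower in the high-numbered nuclei of all 6 libraries. By median log2 difference, Igf1 ranked at place 4 of the 310, after Cdh18 (1.75), Mroh9 and Alas1 (1.26), the rate-limiting enzyme of heme synthesis. Igfbp1 ranked at place 12 of the 243, which were led by Pnpla3, a lipid droplet protein (-3.46), Npas2, a transcription factor of the circadian clock (-1.84), and Fabp1, the liver fatty acid binding protein (-1.41). Pnpla3 changed by -3.93 to -3.44 in the G0 and P7L libraries but by -0.20 and -0.84 in G14.5 perfusion and liver tissue, the libraries in which Igf1 and Igfbp1 also changed least. What the numbers stand for is not given in the sources used here, so an animal, a plate and a day of work cannot be told apart.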
